A study of Mus musculus with 4 samples.

Results

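Transcripts of AP-1 factors and of immediate early genes were compared between wild-type primary mouse keratinocytes and keratinocytes deficient in the glucose transporter Glut1 (gene Slc2a1). The 10 genes examined were Fos, Fosb, Fosl1, Fosl2, Jun, Junb, Jund, Egr1, Ier3 and Btg1. They were chosen by name, with earlier results of these data known. The brightest array row annotated with that symbol alone stood for each gene. This gave 9 of the 10 genes among 30142 genes with such a row. Each of the 9 had a single row of this kind. The row that covers Junb is also annotated to Prdx2, its neighbour in the RefSeq gene table, so its signal cannot be assigned to either gene and no value is given for Junb.

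Keratinocytes came from 1-week-old C57BL/6J mice, wild type or with a keratinocyte-specific Glut1 deficiency, 4 mice per genotype. They grew in keratinocyte serum-free type medium with 0.05 mM CaCl2, hydrocortisone, EGF, bovine pituitary extract, insulin and antibiotics, were reseeded on collagen after 3 days at 2000000 cells per plate, and were lysed the next day. All cells of both genotypes were thus exposed to EGF, a known inducer of immediate early genes, and had been replated the day before. RNA of 2 plates of a genotype, combined at random, went onto each MTA-1_0 array, giving 2 wild-type and 2 Glut1-deficient arrays. The promoter that drove the deletion is not named in the sources used here. The p-values measure the spread between these pools, and with so few arrays the precision is low.

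AP-1 is a dimeric transcription factor. Jun proteins (Jun, Junb, Jund) pair with one another or with Fos proteins (Fos, Fosb, Fosl1, Fosl2) through a leucine zipper, and Fos proteins need a Jun partner to bind DNA. Growth factors, stress and wounding induce many of these genes within minutes through MAP kinases acting on serum response factor, its ternary complex partners, CREB and Jun itself. In the epidermis AP-1 is known for its part in keratinocyte proliferation, in differentiation genes such as involucrin, and in inflammation. Egr1 is a zinc finger factor of the same early response, Ier3 is a stress-induced regulator of cell survival, and Btg1 is an antiproliferative protein that binds the CCR4-NOT deadenylase.

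The stretches before the RefSeq starts of 5 of these genes are shown: those of the genes called changed (values below) with a window in the promoter table used. They are also the 5 windows with a match to a motif searched. The sequences are from RefSeq on GRCm38.p6, whose table held windows for 8 of the 10 genes. They run 5′ to 3′ on the gene's strand and end at the base before the annotated start. Fos lies at chr12:85473770-85473889 (+ strand), Jun at chr4:95052223-95052342 (- strand), Jund at chr8:70697619-70697738 (+ strand), Btg1 at chr10:96616801-96617000 (+ strand) and Ier3 at chr17:35821593-35821712 (+ strand). Capitals mark matches to the motifs described after them.
Fos: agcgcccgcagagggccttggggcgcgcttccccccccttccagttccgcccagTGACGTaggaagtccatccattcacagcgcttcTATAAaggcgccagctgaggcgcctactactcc
Jun: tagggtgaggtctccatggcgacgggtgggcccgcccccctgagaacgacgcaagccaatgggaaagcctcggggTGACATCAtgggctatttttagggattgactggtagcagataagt
Jund: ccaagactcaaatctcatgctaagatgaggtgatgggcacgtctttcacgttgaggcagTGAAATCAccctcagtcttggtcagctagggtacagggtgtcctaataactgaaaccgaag
Btg1: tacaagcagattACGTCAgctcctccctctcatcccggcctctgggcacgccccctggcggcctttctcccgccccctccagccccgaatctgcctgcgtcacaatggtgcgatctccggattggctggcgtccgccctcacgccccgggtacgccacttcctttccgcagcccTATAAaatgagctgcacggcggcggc
Ier3: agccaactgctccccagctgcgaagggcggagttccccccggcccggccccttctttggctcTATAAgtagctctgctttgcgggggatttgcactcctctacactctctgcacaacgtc

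The 250 bases before each start were searched for the AP-1 element TGANTCA, for the longer variant TGANNTCA, for the CREB element TGACGTCA, for its part TGACGT and for the CArG box of serum response factor, on both strands, and for TATAA on the gene's strand. TGACGTCA also counts as TGANNTCA and as TGACGT. The shorter TGACGT stood 66 bases before the start of Fos and, on the other strand, 188 bases before that of Btg1, and it was present in 6.47% of 32851 windows. TGANNTCA stood 45 bases before the start of Jun, as TGACATCA, and 61 bases before that of Jund, as TGAAATCA, against 11.9% of windows. TATAA stood 33, 26 and 58 bases before the starts of Fos, Btg1 and Ier3, against 16.0% of windows. The letters of TGANTCA, TGACGTCA and the CArG box were in none of the 8 windows of these genes, and in 6.75%, 1.55% and 1.47% of all windows. Bases farther than 250 before the start were not searched, so this absence holds for these windows only. The motifs were chosen after these windows were read, so the shares of all windows are no independent comparison. These matches are descriptions, and no relation between them and the changes was tested.

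Some facts of the whole series bear on what follows. Array medians ran from 4.19 to 4.24 on the log2 scale, and the background floor, the 95th percentile of 23 background control rows on each array, from 4.36 to 4.87. Every one of the 9 genes lay above the floor on all 4 arrays. The targeted gene Slc2a1 was lower in the cells labelled Glut1-deficient (12.09 and 12.01 against 13.26 and 13.40, limma adjusted p = 0.00754, and 0.0508 without mutant replicate 1, in a range over 12 alternatives of 0.00545 to 0.0648). Of the keratinocyte markers, Krt5, Krt14, Itga6, Col17a1 and Trp63 were far above the floor in both genotypes, whereas Krt15 was near it. Of these 6 markers 5 were lower without overlap in the mutant arrays, as were 25.8% of all rows. The summed level of the 6, the log2 of their summed linear signals, was 18.67 to 18.93 in mutant and 19.23 to 19.34 in wild-type arrays. Krt5, the brightest of them, weighs most in it. Col17a1 passed the test and fell by 0.86, and Krt5, Krt14, Itga6 and Krt15 differed by -0.51, -0.43, -0.33 and -0.10. Trp63 was higher without overlap, by 0.18, and did not pass. All 5 measured immune markers lay at or below the floor in both groups, as did 3 of 5 endothelial markers, but Kdr rose by 3.60. All 6 melanocyte markers were higher without overlap, as were 23.8% of all rows, and 1 of the 6, Pmel, passed the test. Their summed level, taken in the same way, was 10.02 to 10.53 in wild-type and 11.12 to 12.37 in Glut1-deficient arrays. Tyrp1, the brightest of them, weighs most in it (10.25 and 9.67 against 12.11 and 10.80). The 5 measured fibroblast markers had summed levels of 6.61 to 6.62 against 7.09 to 7.36. Only Dcn passed among them (4.08 and 3.82 against 5.28 and 5.97). Its wild-type values lay below the floors of those arrays (4.36 and 4.70), so the size of its rise is uncertain. Col1a1, Col1a2, Col3a1 and Lum, at or near the floor, differed by 0.20 to 0.40 without passing. Whether these cells carried part of the AP-1 signal was not tested. In such bulk RNA, fewer cells of a type and less RNA per cell cannot be told apart.

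In the Glut1-deficient cells, transcripts of Fos, Fosl1, Jun, Jund and Btg1 rose, by 1.66-fold to 2.94-fold, and those of Ier3 fell to 0.49 of the wild-type signal. Fosb, Fosl2 and Egr1 did not pass the test. Thus 5 of 9 genes were called higher and 1 lower at a limma adjusted p under 0.05, where 4.11% of all 30604 rows tested were called higher, 3.11% lower and 7.22% in either direction. Groups did not overlap for 6 genes in the upward and 2 in the downward direction, against 23.8% and 25.8% of all rows. The median change of the 9 genes was 0.73 on the log2 scale, against -0.01 over all rows tested. Because the genes were chosen with earlier results of these data known, these counts and this median are no independent test of the set. Each change is a log2 difference, mutant minus wild type, given with limma's moderated standard error (SE) and resting on n = 2 arrays per group. The counts depended on which rows were tested and on single arrays: when limma tested all rows of the table, control rows included, 0 of the 9 genes passed (7 had an unadjusted p under 0.05, and 74 of 72688 rows were called). Without wild-type replicate 1, wild-type replicate 2 or mutant replicate 1, 2 genes were called higher, and without mutant replicate 2 it was 4. The fall of Ier3 was not called when replicate 1 of either genotype was left out.

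**Figure D1:**
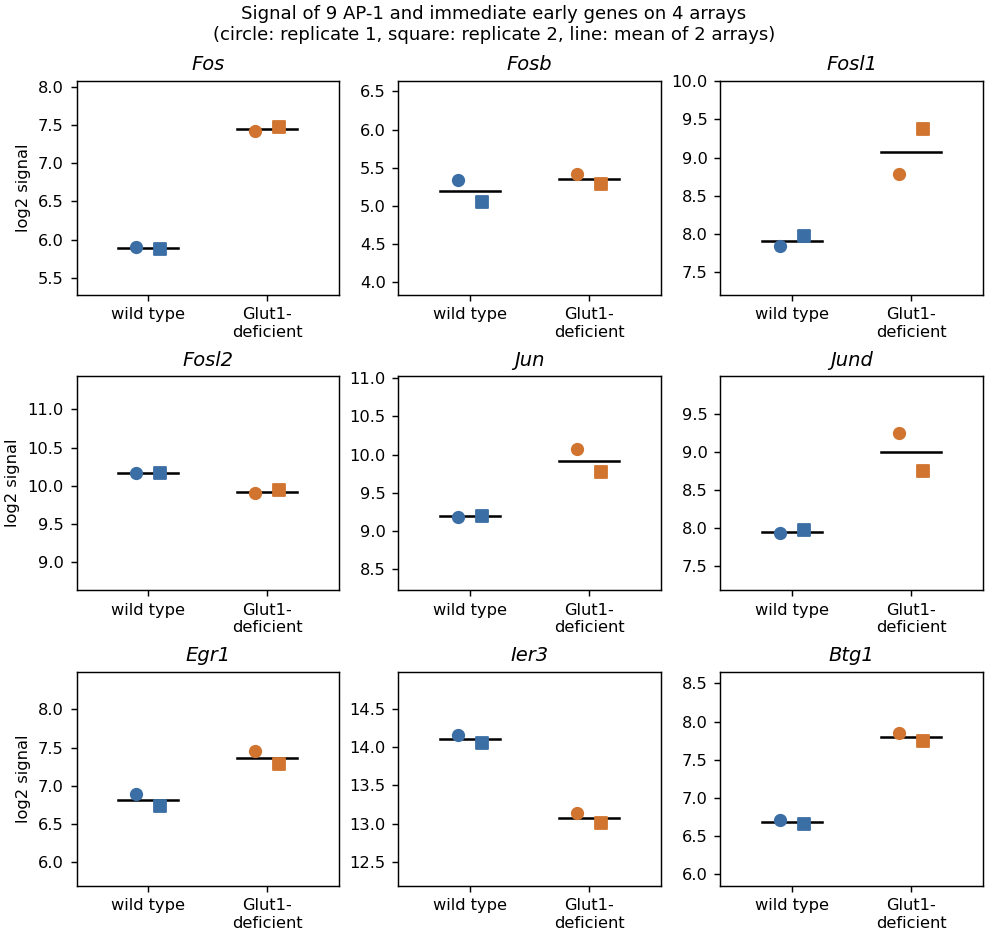
Log2 signal (vertical axis, a span of equal size in every panel) of the 9 genes on the 2 wild-type arrays (blue) and the 2 Glut1-deficient arrays (orange). Circles are replicate 1, squares replicate 2 and lines group means. Fos and Btg1 have close replicates and wide gaps between the groups, the Glut1-deficient arrays of Fosl1, Jun and Jund lie apart from each other, and the groups of Fosb overlap.

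Among the Fos proteins, Fos itself had the smallest adjusted p. Wild-type arrays read 5.90 and 5.88, mutant arrays 7.42 and 7.48. Both arrays of the mutant cells lay 1.52 or more above either wild-type array, and replicates differed by far less than the groups. Fos rose by 1.56 (SE 0.09, 95% interval 1.32 to 1.79, limma adjusted p = 0.00434), which is 2.94-fold on the linear scale. A change of this size or larger, in either direction, was seen in 0.980% of rows. The call held in each fit without 1 array (log2 change 1.53 to 1.59), but testing every row of the table raised its adjusted p to 0.0516 (12 alternatives spanned 0.00334 to 0.0516).

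Fosl1 encodes Fra-1, a Fos protein without the strong activation domain of Fos that often accumulates under sustained ERK signalling. Fosl1 signal was 7.84 and 7.97 in wild-type cells and 8.78 and 9.37 in Glut1-deficient cells. Both mutant arrays were higher than both wild-type arrays, and replicate 2 of the mutant was the highest of all. The rise was 1.17 (SE 0.21, 95% interval 0.64 to 1.70, limma adjusted p = 0.0380). It rested on single arrays: without wild-type replicate 1, wild-type replicate 2 or Glut1-deficient replicate 2 the change was 1.11, 1.24 and 0.88, with adjusted p of 0.135, 0.100 and 0.0522, and after median centring the adjusted p was 0.0508 (range over 12 alternatives 0.0158 to 0.150). In the RefSeq table Fosl1 overlaps 1 other gene, Ccdc85b, and whether its row also measures RNA of that gene was not tested.

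Fosl2 and Fosb did not pass the test. Fosl2, which encodes Fra-2, was 10.16 and 10.17 in wild-type and 9.90 and 9.94 in Glut1-deficient cells. These groups did not overlap and the mutant arrays were the lower ones, with a difference of -0.24 (SE 0.09, 95% interval -0.48 to -0.01, limma adjusted p = 0.212). A difference of at least this size was seen in 30.7% of rows. Fosb, a Fos protein with a strong activation domain, was 5.33 and 5.05 in wild-type and 5.42 and 5.28 in Glut1-deficient cells, close to the background floor. Its groups overlapped, and the difference of 0.16 (95% interval -0.18 to 0.50) did not pass (limma adjusted p = 0.611). With 1 array left out the difference ran from 0.02 without wild-type replicate 2 to 0.30 without wild-type replicate 1, with 0.09 and 0.23 without mutant replicates 1 and 2 (adjusted p 0.472 to 0.989). Whether the changes of the 4 Fos proteins differ from each other was not tested.

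Of the Jun proteins, the obligate partners of Fos, Jun and Jund both rose. Jun, the main activator of the group, was 9.18 and 9.20 in wild-type and 10.07 and 9.77 in Glut1-deficient cells. Wild-type arrays were nearly equal, and replicate 1 of the mutant was the higher of its pair. Jun rose by 0.73 (SE 0.13, 95% interval 0.40 to 1.06, limma adjusted p = 0.0388), or 1.66-fold. Jund, which restrains growth in several cell types and is less inducible than its relatives, was 7.93 and 7.97 in wild-type and 9.25 and 8.75 in Glut1-deficient cells. Again the mutant arrays were the higher ones, replicate 1 most. Jund rose by 1.05 (SE 0.18, 95% interval 0.59 to 1.50, limma adjusted p = 0.0348), or 2.07-fold.

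Both Jun calls were lost without wild-type replicate 1, wild-type replicate 2 or Glut1-deficient replicate 1. Jun then changed by 0.72, 0.74 and 0.58 with adjusted p of 0.155, 0.138 and 0.105 (range over 12 alternatives 0.0253 to 0.155). Jund changed by 1.03, 1.07 and 0.80 with adjusted p of 0.124, 0.108 and 0.0739 (0.0222 to 0.142). The spread between the 2 Glut1-deficient arrays was wider than that between the wild-type arrays for Fosl1, Jun and Jund alike, with standard deviations of 0.42, 0.21 and 0.35 against 0.096, 0.017 and 0.029. The array with the higher signal was replicate 2 for Fosl1 and replicate 1 for Jun and Jund. Replicate 1 was also the mutant array with the higher summed melanocyte level (12.37 against 11.12), and the part of such cells in the Jun and Jund values was not tested.

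**Figure D2:**
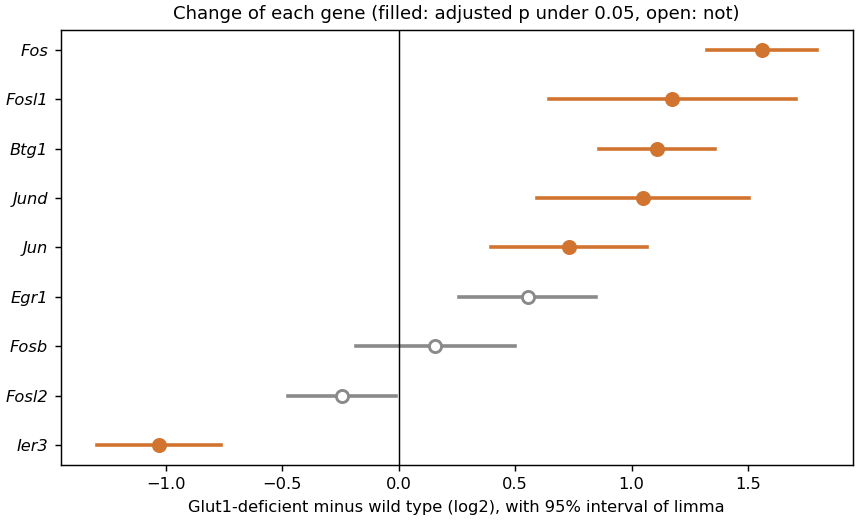
Change of each gene (horizontal axis, Glut1-deficient minus wild type, log2) as estimated by limma from 2 arrays per genotype, with lines for the 95% interval. Filled points have an adjusted p under 0.05. The intervals of Fosb cross 0, that of Fosl2 ends at -0.01 and that of Egr1 begins at 0.26, while Ier3 alone was called lower.

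Egr1, the zinc finger factor, was 6.89 and 6.73 in wild-type and 7.45 and 7.28 in Glut1-deficient cells. Both mutant arrays were above both wild-type arrays, with a gap of 0.39 between the groups. The difference of 0.55 (SE 0.12, 95% interval 0.26 to 0.85) missed the threshold (limma adjusted p = 0.0568), and 9.88% of rows differed by at least as much. When only the brighter rows, those whose mean reached the median, were tested it passed, with an adjusted p of 0.0369 (range over 12 alternatives 0.0369 to 0.238). The corepressors that bind EGR proteins, Nab1 and Nab2, did not pass either. Nab2 was 7.67 and 7.73 against 8.28 and 8.11, a difference of 0.49 with limma adjusted p = 0.0623, and Nab1 differed by -0.02. Nab2 has 2 rows, and their mean differed by 0.26 (adjusted p = 0.233), whereas Nab2 passed when only the brighter rows were tested (0.0407, range over 12 alternatives 0.0407 to 0.263).

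Ier3 went the other way. Its signal was 14.16 and 14.05 in wild-type and 13.14 and 13.01 in Glut1-deficient cells. The highest mutant array was 0.91 below the lowest wild-type array. Ier3 fell by 1.03 (SE 0.10, 95% interval -1.30 to -0.76, limma adjusted p = 0.0122). The call was lost without replicate 1 of the wild type or of the mutant, where the change was -0.97 and -1.09 with adjusted p of 0.0635 and 0.0562 (range over 12 alternatives 0.00863 to 0.0812).

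Btg1 signal was 6.72 and 6.66 in wild-type and 7.85 and 7.74 in Glut1-deficient cells. Replicates were close and the groups lay 1.03 apart at their nearest arrays. Btg1 rose by 1.11 (SE 0.10, 95% interval 0.86 to 1.36, limma adjusted p = 0.00866), or 2.16-fold, as much as or more than all but 2.27% of rows. Only without Glut1-deficient replicate 1, among the fits that left out an array, was the call lost (change 1.06, adjusted p = 0.0550, range over 12 alternatives 0.00631 to 0.0697). Of 9 measured relatives of Btg1 and subunits of the deadenylase they recruit, 1 rose, 1 fell and 7 did not pass, with a median of -0.03. The shares of all rows called higher and lower were 4.11% and 3.11%. Tob1, an antiproliferative relative, was 8.22 and 8.15 against 8.89 and 8.69 and rose by 0.60 (limma adjusted p = 0.0421). Cnot6, a deadenylase subunit, was 12.95 and 12.78 against 11.84 and 12.22 and fell by 0.83 (limma adjusted p = 0.0436). The call of Tob1 was lost whichever array was left out (adjusted p 0.0622 to 0.178), and that of Cnot6 without wild-type replicate 1 or 2 or mutant replicate 1 (0.169, 0.109 and 0.118, range over 12 alternatives 0.0277 to 0.169). Btg2, the p53-inducible relative, differed by -0.09 (limma adjusted p = 0.772).

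In other families that can pair with Fos or Jun proteins, few genes passed the test. Of 11 measured ATF, BATF and MAF genes out of 13 listed, 1 rose, 1 fell and 9 did not pass, with a median of 0.33. The shares over all rows were 4.11% called higher and 3.11% lower. Groups did not overlap for 6 of the 11 in the upward and 3 in the downward direction, against 23.8% and 25.8% of all rows. An unadjusted limma p under 0.05 was seen for 8 of the 11, and for 6720 of all 30604 rows. Atf4, the factor of the amino acid response, was 10.73 and 10.77 in wild-type and 11.84 and 11.71 in Glut1-deficient cells, and rose by 1.03 (SE 0.10, limma adjusted p = 0.0114). Maf, a large MAF factor, was 6.25 and 6.00 against 5.09 and 4.78, and fell by 1.19 (SE 0.15, limma adjusted p = 0.0190). The mutant values of Maf were close to the background floors of those arrays (4.87 and 4.63), so the size of its fall is uncertain. Without wild-type replicate 1, wild-type replicate 2 or Glut1-deficient replicate 1 the call of Atf4 was lost (adjusted p = 0.0608, 0.0503 and 0.0588, range over 12 alternatives 0.00807 to 0.0783). That of Maf was lost without wild-type replicate 1 or either Glut1-deficient replicate (0.0774, 0.0600 and 0.0570, range 0.00867 to 0.0995). Atf3, an immediate early ATF gene named here after its values were seen, was 7.99 and 8.37 against 9.43 and 8.63. Its mutant arrays were higher without overlap, but the difference of 0.85 did not pass (limma adjusted p = 0.175). It was 0.44 without mutant replicate 1 and 1.25 without mutant replicate 2 (adjusted p = 0.360 and 0.0628, range over 12 alternatives 0.0628 to 0.459).

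The wider immediate early response was not uniformly higher. Among 28 other immediate early genes 2 rose, 5 fell and 21 did not pass, with a median of -0.04. Over all rows tested, 4.11% were called higher and 3.11% lower. Zfp36l1, which promotes decay of AU-rich mRNAs, fell by 1.61 (12.90 and 12.71 against 11.21 and 11.19, limma adjusted p = 0.00523). Rhob, an inducible small GTPase, fell by 1.79 (12.06 and 11.84 against 10.01 and 10.30, limma adjusted p = 0.00754). Ccn1, a secreted matricellular protein, fell by 1.26 (16.83 and 16.84 against 15.61 and 15.54, limma adjusted p = 0.00627). These 3 falls were called in every fit that left out an array, but all were lost with every row of the table tested (adjusted p = 0.0516, 0.0648 and 0.0592, the highest of their 12 alternatives, of which the lowest were 0.00375, 0.00525 and 0.00456). The kinase gene Sgk1 fell by 1.31 and Ccn2, a relative of Ccn1, by 1.22 (limma adjusted p = 0.0148 and 0.0187). Sgk1 was lost without replicate 1 of the wild type or of the mutant (0.0569 and 0.0713, range over 12 alternatives 0.0100 to 0.0884), and Ccn2 without either wild-type array (0.0762 and 0.0675, range 0.0124 to 0.0991).

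The 2 other immediate early genes that rose were Plk3, a stress-responsive polo-like kinase, and Nr4a1, an inducible orphan nuclear receptor. Plk3 was 11.08 and 11.81 in wild-type and 13.50 and 12.92 in Glut1-deficient cells, a rise of 1.76 (SE 0.30, limma adjusted p = 0.0357). Nr4a1 was 6.57 and 6.59 against 7.26 and 7.10, a rise of 0.60 (SE 0.10, limma adjusted p = 0.0366). Both were lost when single arrays were left out: Plk3 without wild-type replicate 1 or either Glut1-deficient replicate (adjusted p = 0.0879, 0.144 and 0.0657, range over 12 alternatives 0.0224 to 0.144), and Nr4a1 without any of the 4 (0.0618 to 0.167). Ccn2, Plk3 and Nr4a1 were named after their values were seen. Egr2, a relative of Egr1 whose signal of 5.09 to 5.24 was close to the background floor, differed by -0.01 and did not pass. Nor did Ier2 (0.12), Myc (0.37) or Klf6 (-0.29).

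**Figure D3:**
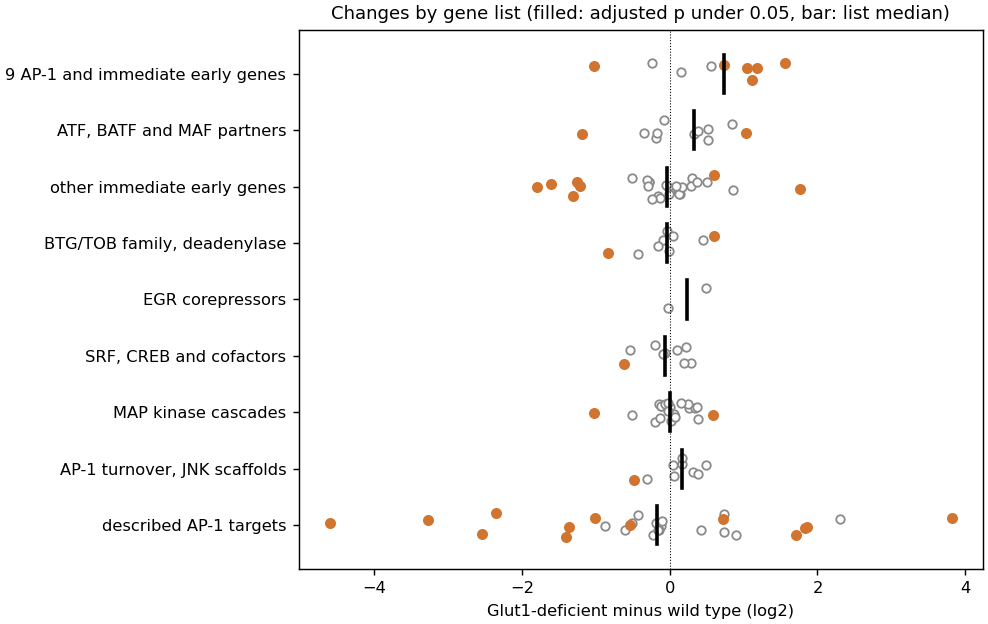
Change of each measured gene (horizontal axis, Glut1-deficient minus wild type, log2) by gene list, with filled points for an adjusted p under 0.05 and a bar for the list's median. The 9 AP-1 and immediate early genes have a median of 0.73, the other lists have medians from -0.17 to 0.33, and the described AP-1 targets spread from -4.60 to 3.82.

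For genes that act upstream of AP-1 the counts are to be read against the 7.22% of all rows called in either direction. Of 30 listed components of the MAP kinase cascades 21 had a row with a single symbol, of which 1 rose, 1 fell and 19 did not pass, with a median of 0.004. Mapk11, a p38 kinase, was 11.80 and 11.57 against 10.56 and 10.76 and fell by 1.02 (limma adjusted p = 0.0190). Map2k6, an activator of p38 kinases, was 7.10 and 7.08 against 7.71 and 7.65 and rose by 0.58 (limma adjusted p = 0.0295). Among serum response factor, CREB and their cofactors 1 of 9 fell and 8 did not pass, with a median of -0.06. Elk3, a ternary complex factor, fell by 0.63 (limma adjusted p = 0.0459), and Srf differed by -0.06. Of 9 genes for AP-1 turnover and JNK scaffolds 1 fell and 8 did not pass, with a median of 0.16. This was Fbxw7, the ubiquitin ligase subunit that targets Jun for degradation, at 7.87 and 7.76 against 7.33 and 7.32, a fall by 0.49 (limma adjusted p = 0.0489). Mapk11 was lost without replicate 1 of the wild type or of the mutant (0.0829 and 0.0890, range over 12 alternatives 0.0126 to 0.0995), and Map2k6, Elk3 and Fbxw7 whichever array was left out (0.0704 to 0.147, 0.0704 to 0.205 and 0.116 to 0.248).

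Genes described as AP-1 targets went both ways. Of 28 measured of 32 listed, 5 rose, 8 fell and 15 did not pass, with a median of -0.17. Of all rows tested, 4.11% were called higher and 3.11% lower, and this list was chosen with earlier results of these data known. The rises held 3 matrix metalloproteinase genes. Mmp3 was 10.57 and 10.58 in wild-type and 14.07 and 14.71 in Glut1-deficient cells and rose by 3.82 (SE 0.22, limma adjusted p = 0.00424). Mmp10 rose by 1.71 (limma adjusted p = 0.00523) and Mmp13 by 1.86 (limma adjusted p = 0.0274). Vegfa, an angiogenic growth factor, was 9.08 and 9.19 against 10.97 and 10.96 and rose by 1.84 (limma adjusted p = 0.00340). The fifth was Plaur, the urokinase receptor, which rose by 0.73 (limma adjusted p = 0.0372).

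Another metalloproteinase gene of the list, Mmp9, fell by 4.60 (14.18 and 13.42 against 8.75 and 9.64, limma adjusted p = 0.00754). Csf2, which encodes the cytokine GM-CSF, was 8.81 and 8.67 against 5.17 and 5.77 and fell by 3.27 (limma adjusted p = 0.00507). Its value on mutant replicate 1 was close to the background floor of that array (4.87). The chemokine gene Cxcl2 fell by 2.36, the urokinase gene Plau by 2.54 and the involucrin gene Ivl by 1.36 (limma adjusted p = 0.00507, 0.0122 and 0.0251). Hence urokinase and its receptor changed in opposite directions, as did Mmp9 and the 3 metalloproteinase genes that rose. Mmp9, Mmp10, Mmp13, Plau, Plaur and Ivl were named after their values were seen. Mmp3, Mmp10, Mmp9, Vegfa, Csf2, Cxcl2 and Plau were called in every fit that left out an array, but with every row of the table tested only Mmp3 and Vegfa of these 7 stayed called (limma adjusted p = 0.0493 and 0.0480). Mmp13 was lost without wild-type replicate 2 or either Glut1-deficient replicate (0.0744, 0.0659 and 0.0717, range over 12 alternatives 0.0174 to 0.121), Plaur whichever array was left out (0.0742 to 0.152), and Ivl without wild-type replicate 1 or 2 or mutant replicate 1 (0.0954, 0.0675 and 0.0671, range 0.0162 to 0.115).

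**Figure D4:**
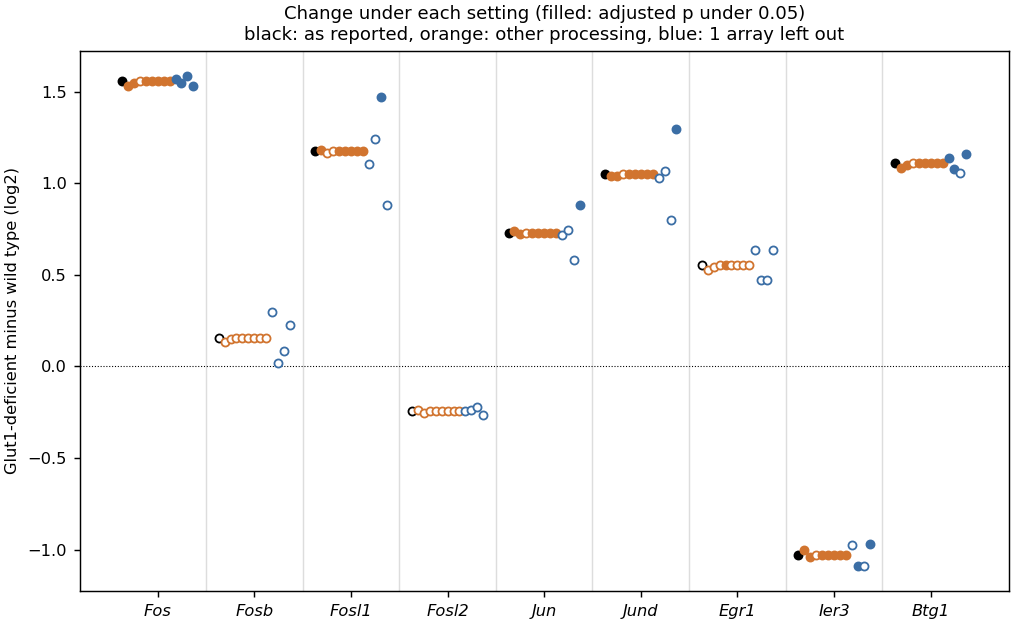
Change of each of the 9 genes (vertical axis, Glut1-deficient minus wild type, log2) as reported (black), under 8 other ways of processing (orange) and with 1 array left out (blue), with filled points for an adjusted p under 0.05. Fos runs from 1.53 to 1.59 and Fosl1 from 0.88 to 1.47, and no gene crosses 0.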

How the data were processed

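RNA was measured on 4 single-channel arrays. The authors deposited log2 values for each transcript cluster. The submitters' processing notes name Affymetrix Expression Console and RMA, without versions, and per the labels the signals are SST-RMA. RMA equalises the arrays, so a change common to most genes would vanish, and SST-RMA transforms the signal, so folds may differ from plain RMA.

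Of 72688 rows, the 30604 with 1 gene symbol in the platform annotation entered a 2-group fit of limma 3.58.1 (lmFit, eBayes) in R 4.3.3, two-sided, with Benjamini-Hochberg adjustment over these rows and a threshold of 0.05. The procedure was tested on simulated data. Same-numbered arrays deviated with a correlation of -0.23. The labels tie no numbers to a shared animal, so no block was used. Alternatives covered normalization, rows tested, moderation, a replicate block and each array left out.

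The members and lists were chosen with earlier results of these data known, and the promoter motifs after reading the windows. Genes named beside the members are Slc2a1, up to 4 genes with the smallest p of each list, cell type markers and, for contrast, the further list genes given. Several of these list genes fall outside that rule and were picked after their values were seen. They are Atf3, Ccn2, Plk3, Nr4a1, Btg2, Egr2, Ier2, Myc, Klf6, Srf, Mmp9, Mmp10, Mmp13, Plau, Plaur, Ivl, Sprr1a, Sprr1b and Lor.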

Additional observations from a re-analysis of the deposited data

How the results depend on the processing

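No gene of the 9 changed direction under the 8 other ways of processing or the 4 fits without 1 array. In those 8, 64 of 72 values kept their side of the threshold. With every row of the table tested, Fos, Fosl1, Jun, Jund, Btg1 and Ier3 (changes 1.56, 1.17, 0.73, 1.05, 1.11 and -1.03) lost their calls, leaving 0 higher and 0 lower, with 7 at an unadjusted p under 0.05 in limma, and 74 rows called. Fosl1 was lost after median centring (1.16, or 1.165 unrounded) and Egr1 gained when only rows whose mean reached the median were tested (0.55). Without 1 array the changes ran from 0.88 to 1.47 for Fosl1, 0.58 to 0.88 for Jun, 0.80 to 1.30 for Jund, -1.09 to -0.97 for Ier3 and 1.06 to 1.16 for Btg1. Between 2 and 4 genes were then called higher and 0 to 1 lower, and 314 to 1214 rows. In these fits 1 residual degree of freedom remains and the lone array is assumed to vary like the other group. With the replicate block 1849 rows, 5 members higher and 1 lower were called, so no call of the 9 changed. Of the other called genes Tob1, Elk3, Map2k6, Fbxw7 and Nr4a1 were lost with it, Cnot6 and Elk3 after median centring (adjusted p = 0.0555 and 0.0551) and with an intensity trend (0.0500 and 0.0559), and Fbxw7 with the trend and with robust eBayes (0.0586 and 0.0507). With crossed numbers 2039 rows, 4 members higher and 1 lower were called, a setting added after seeing the data. Nab1, which never passed, was 0.0107 after quantile normalization and -0.21 to 0.17 without 1 array. The cause of these shifts was not tested. With every row tested, more rows enter both limma's moderation and the adjustment. Without 1 array, fewer arrays enter.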
